A study of Mus musculus with 12 samples.

Results

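The 10 genes described here, Axl, F3, Tgfb2, Crim1, Myof, Asap1, Dock5, Arhgef17, Ptpn14 and Nuak2, belong to a 22-gene signature of YAP and TAZ target genes and were taken by name, without Ccn1 and Ccn2. All 10 were listed among the 41743 genes of both deposited tables. RNA-sequencing of frozen whole liver gave a value for each gene in TPM, transcripts per 1000000, in 12 female mice aged 3 to 4 months, 3 in each of 4 groups. YAP KO mice carried Foxa3-Cre and floxed Yap1 on both alleles with a ROSA-stop-EYFP reporter, on C57BL/6, and were compared with littermates called WT (C57BL/6). YAP KO TAZ HET mice carried Foxa3-Cre, floxed Yap1 on both alleles and 1 deleted copy of Wwtr1, the gene encoding TAZ, on a mixed FVB and C57BL/6 background, and were compared with littermates called WT (mixed). Foxa3-Cre acts in the foregut endoderm, which gives rise to hepatocytes and cholangiocytes. Whole liver also holds cells of other origin, and Yap1 was not measured by cell type. Per the paper, the floxed Yap1 mice were of different lines, a C57BL/6 line for YAP KO and an FVB line for YAP KO TAZ HET. The paper names the reporter for YAP KO alone. Background, this floxed line, the reporter and the set of animals differ between the models together with the copy of Wwtr1, and cannot be told apart from it.

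YAP and TAZ are transcriptional coactivators of the Hippo pathway. They have no DNA-binding domain of their own and act mainly through TEAD factors, often at sites shared with AP-1. When the Hippo kinases phosphorylate YAP and TAZ, both are kept in the cytoplasm or degraded. In the liver they are known for control of cholangiocyte identity, organ size and repair, and their target genes are read in many tissues as a sign of YAP and TAZ activity.

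Yap1 itself fell in both models, to 2.44 ± 1.12 TPM (SD, n = 3) with YAP KO against 29.7 ± 1.29 TPM in littermates, and to 9.77 ± 1.51 TPM with YAP KO TAZ HET against 32.2 ± 1.11 TPM. The log2 fold changes of Yap1 were -3.51 (SE 0.18) and -1.93 (SE 0.14) by limma. Wwtr1 rose in YAP KO livers, by 0.73 (SE 0.11, limma adjusted p = 0.00186) on the log2 scale, and its difference was 0.26 (SE 0.10, adjusted p = 0.0743) in YAP KO TAZ HET livers. By deposited TPM every YAP KO TAZ HET liver (11.5 to 14.1 TPM) was above every WT (mixed) liver (7.73 to 8.38 TPM), as held for 44.4% of all tested genes. Among the TEAD factors, Tead1 rose in both models, by 0.51 (adjusted p = 0.0121) and 0.41 (adjusted p = 0.0498), and Tead2 rose in YAP KO TAZ HET livers by 1.22 (adjusted p = 0.00589), with -0.48 (adjusted p = 0.11) in YAP KO livers. Tead3 and Vgll4, a TEAD cofactor, did not pass the test in either model, and Tead4 and Vgll3 were below the filter on low values. Of 8 coactivator and TEAD genes, 6 were tested in each model, with 2 higher and 1 lower in each and medians of -0.07 and 0.08. Beside these, 18.8% and 19.2% of all tested genes were called higher and 17.9% and 19% lower, with medians of -0.04 in each model.

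All log2 fold changes below are differences between group means of log2(scaled TPM + 1), fitted with limma across every gene that reached 1 TPM in 3 or more of the livers compared, and a gene was called at a Benjamini-Hochberg adjusted p below 0.05. The added 1 TPM shrinks the fold changes of genes near or below that level. The scaling mattered, because without it the median gene was higher in the knockout livers by 0.28 in the C57BL/6 set and 0.24 in the mixed set on the log2 scale, against -0.04 in each with it. Calls were balanced in direction after scaling, with 51.3% and 50.2% of called genes higher, and were mostly higher without it, at 84.0% and 82.2%. TPM values given per mouse are the deposited ones, before scaling.

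Levels per length placed the 10 genes in the same order in both WT groups. Axl was the most abundant, with 10.5 ± 1.16 TPM (SD, n = 3) on C57BL/6 and 11.2 ± 4.13 TPM on the mixed background, and was followed by Nuak2, Crim1, Dock5, Asap1, F3, Arhgef17, Myof, Ptpn14 and Tgfb2. Several neighbours in this order had overlapping ranges: in WT (C57BL/6) livers Crim1 (4.09 to 6.12 TPM), Dock5 (4.88 to 5.12 TPM), Asap1 (4.55 to 5.33 TPM) and F3 (4.14 to 5.02 TPM) could not be ordered beyond their spread. Arhgef17 lay near 1 TPM, and Myof, Ptpn14 and Tgfb2 had means below it in both WT groups. In both knockout groups Axl remained first by its mean and Ptpn14 came last, while Myof moved from the eighth place to the sixth.

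In YAP KO livers, 9 of the 10 genes were tested. Axl, Myof and Tgfb2 rose, against 18.8% of all 11704 tested genes called higher, and F3 fell, against 17.9% called lower. In YAP KO TAZ HET livers 8 were tested. Axl and Myof rose, against 19.2% of 11741 tested genes, and F3 and Nuak2 fell, against 19% called lower. The median log2 fold change of the tested members was 0.16 with YAP KO against 0.02 with YAP KO TAZ HET, and with all 10 genes fitted and no filter it was 0.13 and 0.02, beside 0.00 over all genes in each unfiltered fit. Tgfb2 and Myof passed the filter in the C57BL/6 set through the YAP KO livers alone, and in the mixed set 1 WT liver reached 1 TPM of Myof, so that both counts of members called higher lean on the group in which these genes were high. The Nuak2 call held in 5 of 12 alternative settings.

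**Figure D1:**
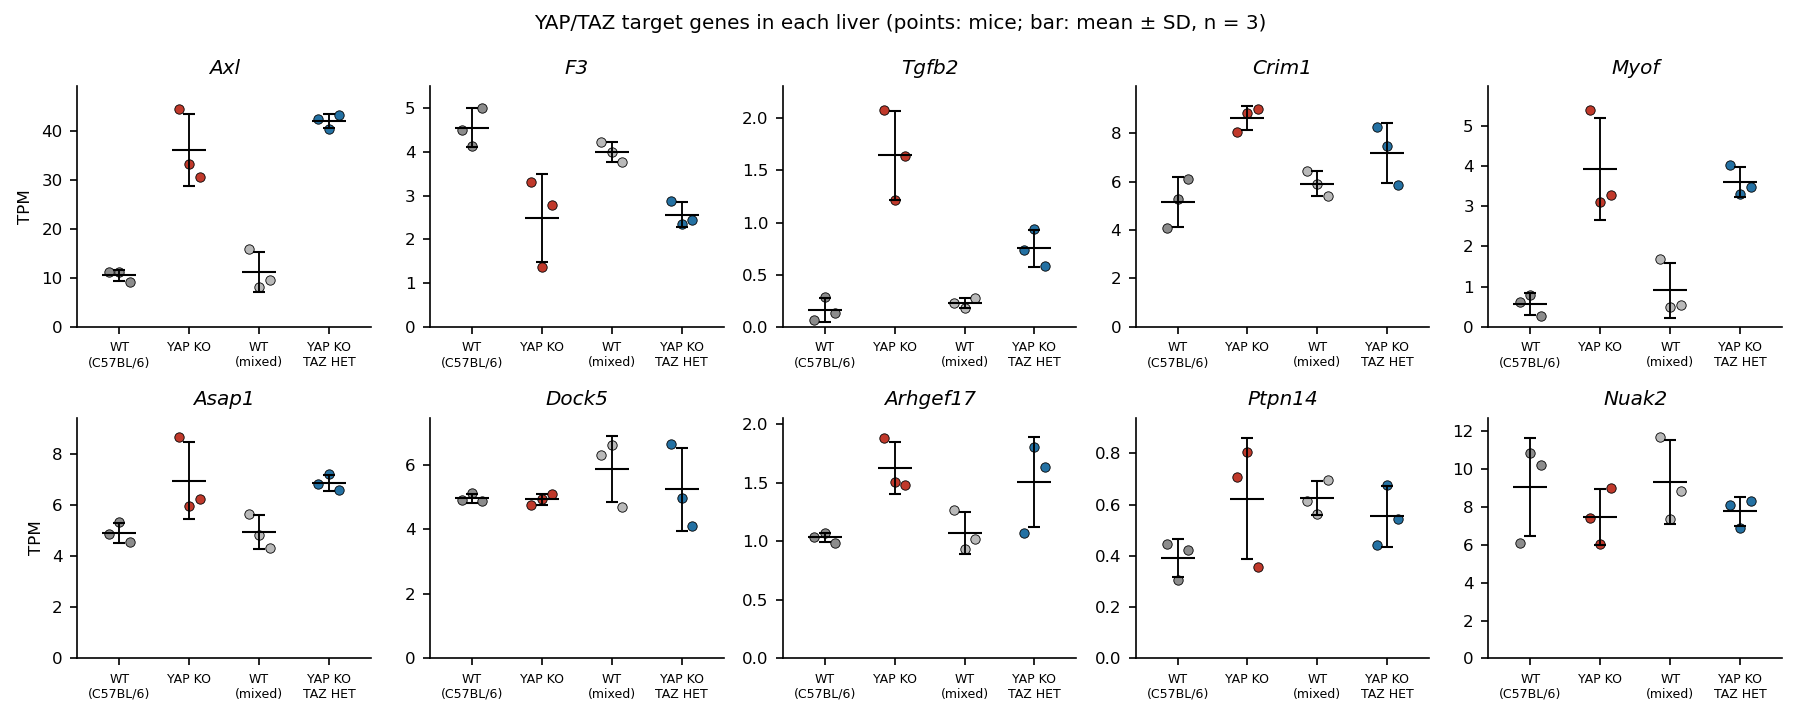
Deposited TPM (vertical axes, from 0, a scale for each gene) of the 10 genes in each liver. Points are single mice, and the bar and whiskers give the mean ± SD of 3 mice. The knockout livers of both models stand above their WT livers for Axl, Myof, Tgfb2 and Asap1 and below them for F3, while Dock5, Ptpn14 and Nuak2 overlap in both models.

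By deposited TPM, every YAP KO liver was above every WT (C57BL/6) liver for 6 of the 10 genes, Axl, Myof, Tgfb2, Asap1, Crim1 and Arhgef17. Over all tested genes the same held for 47.5%, since these values carry the shift of the median gene. Every YAP KO liver was below every WT (C57BL/6) liver for F3 alone, against 9.29% of all genes. In the mixed set the knockout livers were above for 4 of the 10 genes, Axl, Myof, Tgfb2 and Asap1, against 44.4% of all genes, and below for F3 alone, against 10% of all genes. Within the groups, the YAP KO mouse LM74 was the highest of its group for 6 of the 10 genes and the WT mice LM192 (C57BL/6) and LM226 (mixed) for 7 each, and LM226 was the lowest for none. Each of these mice also had the largest scaling factor of its group, at 1.22, 0.913 and 0.947 in the fit of its own set. The same count over all genes was not made, so these counts are no trait of the members.

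Axl encodes a receptor tyrosine kinase of the TAM family, which binds the vitamin K-dependent ligand GAS6 and takes part in the clearance of dying cells and in fibrosis. The Axl gene lies on chr7:25757273-25788705 on the minus strand (GRCm38.p6). Axl was at 11.2, 11.2 and 9.20 TPM in WT (C57BL/6) and at 44.6, 33.4 and 30.7 TPM in YAP KO livers, while the WT (mixed) livers had 15.9, 8.12 and 9.57 TPM and the YAP KO TAZ HET livers 42.5, 40.6 and 43.3 TPM. The lowest knockout liver was well above the highest WT liver in both sets, and the YAP KO TAZ HET livers differed least among themselves, with a coefficient of variation of 3.29%. The mean was 3.44-fold higher with YAP KO and 3.76-fold higher with YAP KO TAZ HET before scaling. After scaling Axl rose by 1.34 (SE 0.14, limma adjusted p = 0.000255) and 1.57 (SE 0.19, adjusted p = 0.000503) on the log2 scale. In the order of all tested genes by log2 fold change Axl was number 542 and number 331 from the top.

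The promoter window of Axl, 250 bases before to 50 bases after the start given by RefSeq on GRCm38.p6, holds the TEAD motif GGAATG once, in capitals here, 233 bases before the start. It is shown because Axl rose in both models (chr7:25788684-25788983, minus strand).
Axl: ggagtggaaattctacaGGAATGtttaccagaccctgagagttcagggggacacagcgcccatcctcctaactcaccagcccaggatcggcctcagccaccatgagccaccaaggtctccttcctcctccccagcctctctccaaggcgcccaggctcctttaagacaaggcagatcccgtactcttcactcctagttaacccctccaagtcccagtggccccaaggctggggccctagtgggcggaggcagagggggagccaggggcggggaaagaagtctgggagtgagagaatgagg
RefSeq windows were matched for 6 of the 10 genes, Axl, Crim1, F3, Myof, Ptpn14 and Tgfb2, and Asap1, Dock5, Arhgef17 and Nuak2 were unmatched. GGAATG, read on both strands, was in 3 of these 6 windows, those of Axl, Crim1 and Ptpn14, and in 14.7% of all 32851 windows of the same length. The windows of Myof, which also rose in both models, and of Tgfb2 held none. A match describes these letters and no binding.

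Of the ligands of the TAM receptors, Pros1 rose in both models, by 0.66 (adjusted p = 0.00351) with YAP KO and 0.66 (adjusted p = 0.00242) with YAP KO TAZ HET. Gas6 was at 98.8 to 127 TPM in YAP KO livers against 45.4 to 87.9 TPM in their WT livers, with a log2 fold change of 0.29 (adjusted p = 0.336). It fell by 0.62 on the log2 scale (adjusted p = 0.00794) in YAP KO TAZ HET livers, a call that was lost without scaling (adjusted p = 0.164). The receptor gene Mertk did not pass the test in either model, at -0.23 (adjusted p = 0.157) and -0.10 (adjusted p = 0.577). Tyro3, the other TAM receptor gene, was below the filter, with group means between 0.130 and 0.501 TPM.

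Markers of other liver cells moved with Axl, which macrophages, stellate cells and fibroblasts are known to express. For all marker counts, the shares over all tested genes were 18.8% higher and 17.9% lower with YAP KO, and 19.2% and 19% with YAP KO TAZ HET. Of 8 macrophage markers 7 rose in each model, and their summed level was 227 to 286 TPM in WT (C57BL/6), 548 to 797 TPM in YAP KO, 194 to 363 TPM in WT (mixed) livers and between 747 and 811 TPM with YAP KO TAZ HET. Of 8 stellate cell and fibroblast markers, 5 rose and 1 fell in YAP KO and 5 rose in YAP KO TAZ HET livers, with sums of 141 to 164, 386 to 510, 124 to 150 and 329 to 426 TPM in the same order of groups. Their part in the Axl result was not tested. In whole liver, more cells of a type and more RNA per cell cannot be told apart, nor can fewer cells and less RNA per cell. Of 6 monocyte and neutrophil markers 6 and 4 rose in the respective models. Of 8 endothelial markers none rose and 2 fell in YAP KO, and 1 rose and 3 fell in YAP KO TAZ HET livers. Of 6 lymphocyte markers 3 and 4 were tested, with 0 and 1 higher by limma and 1 at an unadjusted p below 0.05 in each. No marker on these lists was at 0 in every library of a group.

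**Figure D2:**
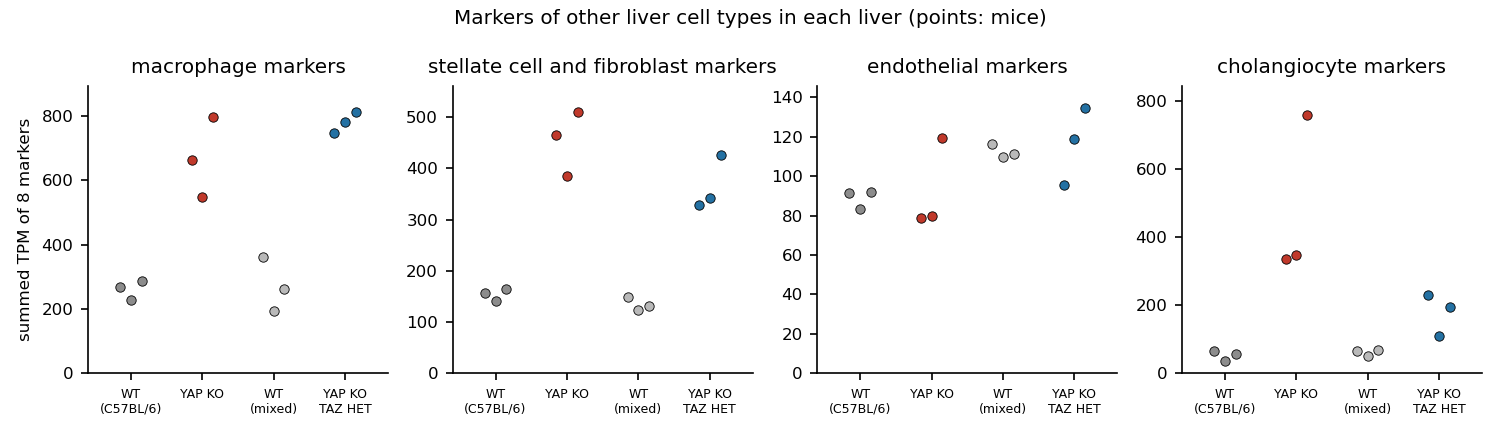
Summed TPM (vertical axes, from 0) of 8 markers of each of 4 liver cell types in each liver, with points for single mice. Macrophage, stellate cell and fibroblast, and cholangiocyte sums are higher in all knockout livers than in all WT livers of their set, and endothelial sums overlap in both sets. The cholangiocyte sum is mostly Spp1, and the paper found no intrahepatic bile ducts in adults of either model by CK19 staining.

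Tgfb2 encodes a ligand of the transforming growth factor beta family, whose members drive matrix production by stellate cells and growth arrest of epithelial cells. Its gene lies on chr1:186622792-186705989 on the minus strand. Tgfb2 was at 0.0658, 0.286 and 0.131 TPM in WT (C57BL/6) and at 2.08, 1.22 and 1.64 TPM in YAP KO livers. The WT (mixed) livers had 0.227, 0.180 and 0.279 TPM and the YAP KO TAZ HET livers 0.735, 0.941 and 0.588 TPM. All knockout livers were above their WT livers, and all YAP KO livers were above all YAP KO TAZ HET livers. The mean was 10.2-fold higher in YAP KO livers, a ratio that rests on WT values far below 1 TPM, whose counting error is unknown because TPM keep no depth. Tgfb2 rose by 1.05 (SE 0.17, limma adjusted p = 0.00251) in YAP KO livers. In the mixed set it was below the filter, with a mean ratio of 3.30 and an exact two-sided permutation p of 0.1, the smallest that 3 against 3 allows. Without the filter its log2 fold change there was 0.41 (SE 0.09, adjusted p = 0.015).

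Of the 5 other ligand and receptor genes examined here, 4 rose in both models, Tgfb1, Tgfb3, Tgfbr1 and Tgfbr2. Tgfbr2, which encodes the type II receptor, was at 4.22 to 4.94 TPM in WT (C57BL/6) and 22.8 to 27.9 TPM in YAP KO livers. The mixed set had 5.54 to 8.34 TPM without and 25.3 to 33.1 TPM with the knockout. Tgfbr2 rose by 1.89 (SE 0.11, adjusted p = 1.48e-05) and 1.69 (SE 0.14, adjusted p = 8.54e-05). Tgfbr1, the type I receptor that carries the signal, rose by 0.69 (adjusted p = 0.00714) and 0.47 (adjusted p = 0.0189). Of the other ligands, Tgfb1 rose by 0.70 (adjusted p = 0.017) and 0.62 (adjusted p = 0.0124), and Tgfb3 rose by 1.17 (adjusted p = 0.0107) and 0.70 (adjusted p = 0.0106). Tgfbr3, which encodes betaglycan, was at -0.39 (adjusted p = 0.0802) in YAP KO livers and fell by 0.46 (adjusted p = 0.0215) in YAP KO TAZ HET livers, with -0.20 (adjusted p = 0.249) in the latter without scaling.

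**Figure D3:**
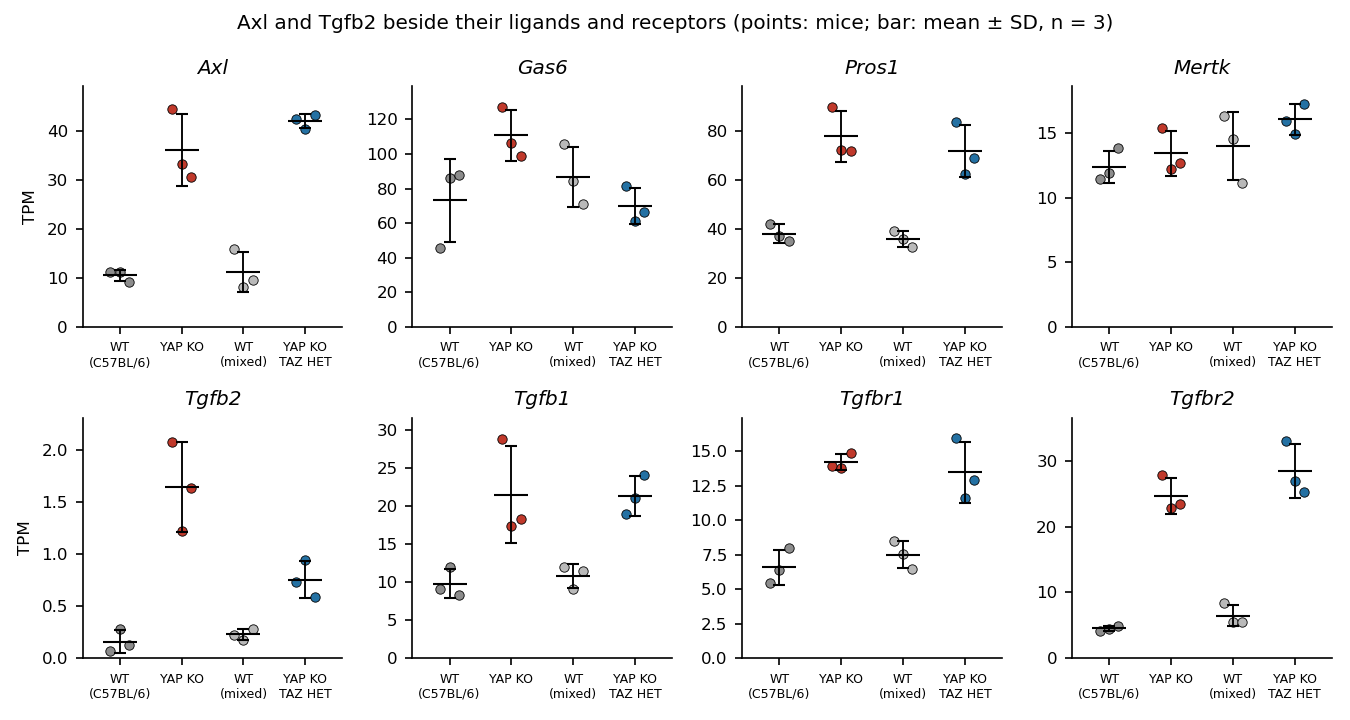
Deposited TPM (vertical axes, from 0) of Axl with its ligand and relatives Gas6, Pros1 and Mertk, and of Tgfb2 with Tgfb1, Tgfbr1 and Tgfbr2, in each liver. Points are single mice, and the bar and whiskers give the mean ± SD of 3 mice. Pros1, Tgfb1, Tgfbr1 and Tgfbr2 show knockout livers above WT livers in both sets, while Mertk overlaps in both.

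Some cholangiocyte markers moved with Tgfb2 and others did not. Of 8 such markers 5 were tested in each model, with Spp1 and Sox9 higher in both, by 3.04 (adjusted p = 0.000325) and 2.10 (adjusted p = 0.000128) with YAP KO and by 1.33 (adjusted p = 0.0071) and 1.69 (adjusted p = 0.0013) with YAP KO TAZ HET. Epcam fell by 1.48 (adjusted p = 0.00118) with YAP KO TAZ HET, and Krt19 did not pass the test in either model. By CK19 staining the paper found adults of both models to lack intrahepatic bile ducts. A higher level of some of these markers is therefore no measure of ducts. The summed level of the 8 markers was 36.7 to 64.4 TPM in WT (C57BL/6), 336 to 759 TPM in YAP KO, 50.3 to 67.0 TPM in WT (mixed) livers and between 110 and 231 TPM with YAP KO TAZ HET. Most of it was Spp1, whose group means were 40.0, 450.4, 45.4 and 153.6 TPM in this order. Spp1 encodes osteopontin, a secreted protein that other liver cells make as well. Like Tgfb2, Spp1 was lower in every YAP KO TAZ HET liver than in every YAP KO liver. Epcam was lower by a hair, with a highest YAP KO TAZ HET value of 0.5438 TPM and a lowest YAP KO value of 0.5445 TPM. Krt7 was higher and the other cholangiocyte markers overlapped. Of the stellate cell and fibroblast markers, Col1a1 and Col3a1 were lower without overlap, at 0.495 and 0.572 times the YAP KO mean, and the others overlapped. The share of all genes without overlap between the knockout groups was not counted. The stellate cell and fibroblast sums given above were also higher in all knockout livers. The part of either list in the Tgfb2 result was not tested.

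F3 encodes tissue factor, the membrane receptor of coagulation factor VII that starts clotting, and was the one member to fall in YAP KO livers. Its gene lies on chr3:121723537-121735048 on the plus strand. F3 was at 4.51, 4.14 and 5.02 TPM in WT (C57BL/6) and at 3.33, 1.38 and 2.79 TPM in YAP KO livers, while the WT (mixed) livers had 4.23, 3.99 and 3.77 TPM and the YAP KO TAZ HET livers 2.89, 2.36 and 2.45 TPM. No knockout liver reached a WT liver of its set, and the YAP KO mouse LM189 was lowest. The ratios of the means were 0.548 and 0.642. After scaling F3 fell by 0.99 (SE 0.21, limma adjusted p = 0.00743) and by 0.73 (SE 0.12, adjusted p = 0.0018) on the log2 scale, and it was number 508 and number 886 from the bottom of all tested genes.

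The F3 promoter window is the only one of the 6 with the AP-1 motif TGANTCA. The motif reads the same on both strands, was in 7.81% of all windows, and stands in capitals here at 146 and 135 bases before the start (chr3:121723287-121723586, plus strand). It is shown because F3 moved against Axl, Myof and Tgfb2, and it holds no GGAATG.
F3: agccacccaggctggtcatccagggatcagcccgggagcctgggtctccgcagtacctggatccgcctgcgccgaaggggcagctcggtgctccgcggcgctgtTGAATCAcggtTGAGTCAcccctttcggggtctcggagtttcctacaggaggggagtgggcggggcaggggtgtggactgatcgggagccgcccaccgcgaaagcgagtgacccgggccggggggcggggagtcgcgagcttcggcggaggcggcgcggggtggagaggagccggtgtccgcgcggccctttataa
Genes of the clotting steps that follow tissue factor were listed at much higher levels. F7 was at 155 to 187 TPM in WT (C57BL/6) livers and fell by 0.91 (adjusted p = 0.000747) with YAP KO and by 0.56 (adjusted p = 0.00278) with YAP KO TAZ HET, the latter call being lost without scaling (adjusted p = 0.104). F10 fell by 0.38 (adjusted p = 0.0112) in YAP KO livers, where its deposited means were 363 and 358 TPM and its unscaled change was -0.02 (adjusted p = 0.836), and was at -0.24 (adjusted p = 0.115) in YAP KO TAZ HET livers. Tfpi, the inhibitor of the tissue factor complex, did not pass the test, at 0.38 (adjusted p = 0.0845) and 0.33 (adjusted p = 0.0807), but its deposited values did not overlap in either set and without scaling it was called higher in both, at 0.64 (adjusted p = 0.0156) and 0.57 (adjusted p = 0.0101). Of 8 hepatocyte markers, 5 fell with YAP KO and 4 with YAP KO TAZ HET, against 17.9% and 19% of all tested genes, and none rose. Their summed level was 101216 to 116017 TPM in WT (C57BL/6) and 77685 to 86852 TPM in YAP KO livers. The mixed set had 91295 to 116152 TPM without and 74759 to 91077 TPM with the knockout. Most of it was Alb, whose group means were 78604, 60138, 75447 and 61512 TPM in this order. By deposited TPM the means of Apoa1, Hnf4a and Cps1 were higher in both knockout groups, and those of the other hepatocyte markers lower. The part of this list in the F3 result was not tested.

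Myof and Crim1 encode proteins of the cell membrane. Myof, a ferlin with a role in membrane fusion and repair, lies on chr19:37899036-38043577 on the minus strand. It was at 0.625, 0.798 and 0.279 TPM in WT (C57BL/6) and 5.39, 3.09 and 3.28 TPM in YAP KO livers, while the WT (mixed) livers had 1.70, 0.495 and 0.540 TPM and the YAP KO TAZ HET livers 4.02, 3.32 and 3.47 TPM. All knockout livers were above all WT livers, among which the WT (mixed) mouse LM226 was highest. Myof rose by 1.43 (SE 0.20, limma adjusted p = 0.00125) and 1.13 (SE 0.23, adjusted p = 0.00549), with 6.91-fold and 3.96-fold higher means before scaling. Its relative Dysf was at 0.12 (adjusted p = 0.573) in YAP KO livers and rose by 0.52 (adjusted p = 0.019) in YAP KO TAZ HET livers.

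Crim1, a transmembrane protein that binds bone morphogenetic proteins, lies on chr17:78200248-78376592 on the plus strand. It was at 4.09, 5.27 and 6.12 TPM in WT (C57BL/6) and 8.06, 8.85 and 8.99 TPM in YAP KO livers, while the WT (mixed) livers had 6.44, 5.88 and 5.40 TPM and the YAP KO TAZ HET livers 8.27, 7.47 and 5.84 TPM. The deposited values did not overlap in the C57BL/6 set and overlapped in the mixed set. The fitted change was 0.35 (SE 0.15, 95% interval -0.01 to 0.70, adjusted p = 0.113) with YAP KO and -0.04 (SE 0.12, adjusted p = 0.813) with YAP KO TAZ HET, and without scaling it was called in YAP KO livers, at 0.66 (adjusted p = 0.0102). Crim1 overlaps Fez2 on the other strand, which was at 11.0 to 20.9 TPM across the livers, and the sources used here do not say whether counting used strand. Its promoter holds GGAATG 79 bases before the start, shown in the stretch around it (chr17:78200142-78200201, plus strand).
Crim1: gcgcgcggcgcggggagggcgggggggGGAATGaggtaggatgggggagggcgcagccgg

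Asap1, Dock5 and Arhgef17 act on small GTPases, which shape the cytoskeleton, and none was called in either model. Asap1, a GTPase-activating protein for Arf on chr15:64086857-64382919, was at 4.89, 5.33 and 4.55 TPM in WT (C57BL/6) and 8.68, 5.95 and 6.26 TPM in YAP KO livers, while the WT (mixed) livers had 5.67, 4.84 and 4.34 TPM and the YAP KO TAZ HET livers 6.83, 7.21 and 6.60 TPM. The deposited values did not overlap in either set, but the fitted changes were 0.11 (SE 0.13, limma adjusted p = 0.566) and 0.14 (SE 0.12, adjusted p = 0.38). Without scaling the change in YAP KO TAZ HET livers was called, at 0.41 (adjusted p = 0.039). Its relatives Asap2 and Asap3 rose in both models, Asap2 by 1.71 (adjusted p = 0.00823) and 1.58 (adjusted p = 0.00432) and Asap3 by 1.20 (adjusted p = 0.00336) and 1.29 (adjusted p = 6.89e-05).

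Dock5, an exchange factor for Rac on chr14:67752135-67933442, was at 4.90, 5.12 and 4.88 TPM in WT (C57BL/6) and 4.76, 4.95 and 5.08 TPM in YAP KO livers, while the WT (mixed) livers had 6.31, 6.61 and 4.70 TPM and the YAP KO TAZ HET livers 6.65, 4.98 and 4.12 TPM. These were the most even values of any member in the C57BL/6 set, with coefficients of variation of 2.68% and 3.30%. The fitted changes were -0.31 (SE 0.12, adjusted p = 0.0795) and -0.42 (SE 0.16, adjusted p = 0.0712), and they were -0.01 and -0.15 without scaling. In the mixed set Dock5 was called lower in 4 of 12 alternative settings, among them without the mouse LM225 (adjusted p = 0.0306) or LM230 (adjusted p = 0.0471), with adjusted p from 0.0288 to 0.565 over all 12. Its relative Dock1 did not pass the test either, at -0.21 (adjusted p = 0.2) and -0.10 (adjusted p = 0.535).

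Arhgef17, on chr7:100869752-100932107, was at 1.04, 1.07 and 0.987 TPM in WT (C57BL/6) and 1.88, 1.51 and 1.48 TPM in YAP KO livers, while the WT (mixed) livers had 1.27, 0.929 and 1.01 TPM and the YAP KO TAZ HET livers 1.07, 1.81 and 1.63 TPM. The YAP KO livers were all above their WT livers, and in the mixed set the knockout mouse LM225 lay among the WT livers. The fitted changes were 0.16 (SE 0.14, adjusted p = 0.394) and 0.09 (SE 0.17, adjusted p = 0.7).

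Ptpn14 and Nuak2 encode enzymes that act back on the Hippo pathway. Ptpn14, a tyrosine phosphatase that binds YAP and restrains it, lies on chr1:189728268-189876695 on the plus strand and was the one member below 1 TPM in every liver. It was at 0.446, 0.306 and 0.422 TPM in WT (C57BL/6) and 0.710, 0.804 and 0.357 TPM in YAP KO livers, while the WT (mixed) livers had 0.616, 0.565 and 0.695 TPM and the YAP KO TAZ HET livers 0.442, 0.678 and 0.545 TPM. Knockout and WT values overlapped in both sets, with unfiltered changes of 0.09 (SE 0.12, limma adjusted p = 0.607) and -0.18 (SE 0.09, adjusted p = 0.173). Its close relative Ptpn21 rose in both models, by 0.69 (adjusted p = 0.00289) and 0.52 (adjusted p = 0.0127). The Ptpn14 promoter holds the TEAD motif on the other strand, as CATTCC, 146 bases before the start (chr1:189728095-189728154, plus strand).
Ptpn14: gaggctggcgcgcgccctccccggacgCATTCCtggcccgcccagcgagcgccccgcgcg

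Nuak2, a kinase related to AMPK that promotes YAP activity, lies on chr1:132316126-132333488 on the plus strand. It was at 6.09, 10.8 and 10.2 TPM in WT (C57BL/6) and 7.43, 6.05 and 9.01 TPM in YAP KO livers, while the WT (mixed) livers had 11.7, 7.38 and 8.85 TPM and the YAP KO TAZ HET livers 8.12, 6.90 and 8.30 TPM. The deposited values overlapped in both sets. After scaling the change was -0.54 (SE 0.21, limma adjusted p = 0.0791) in YAP KO livers, and without the WT (C57BL/6) mouse LM75 it was called lower there, at -0.76 (adjusted p = 0.0142). Nuak2 fell by 0.50 (SE 0.15, adjusted p = 0.0303) in YAP KO TAZ HET livers. The latter call held in 5 of 12 alternative settings, with adjusted p from 0.0164 to 0.341, and was lost without any of the mice LM225, LM226, LM230 or LM250. Its relative Nuak1 rose in YAP KO livers, by 0.69 (adjusted p = 0.0141), and was at 0.11 (adjusted p = 0.649) in YAP KO TAZ HET livers. Over all partners and relatives named here, 17 of 18 were tested in each model, with 9 higher and 2 lower in YAP KO and 9 higher and 3 lower in YAP KO TAZ HET livers, and medians of 0.66 and 0.47. All tested genes had 18.8% and 19.2% called higher, 17.9% and 19% called lower, and medians of -0.04 in each model.

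**Figure D4:**
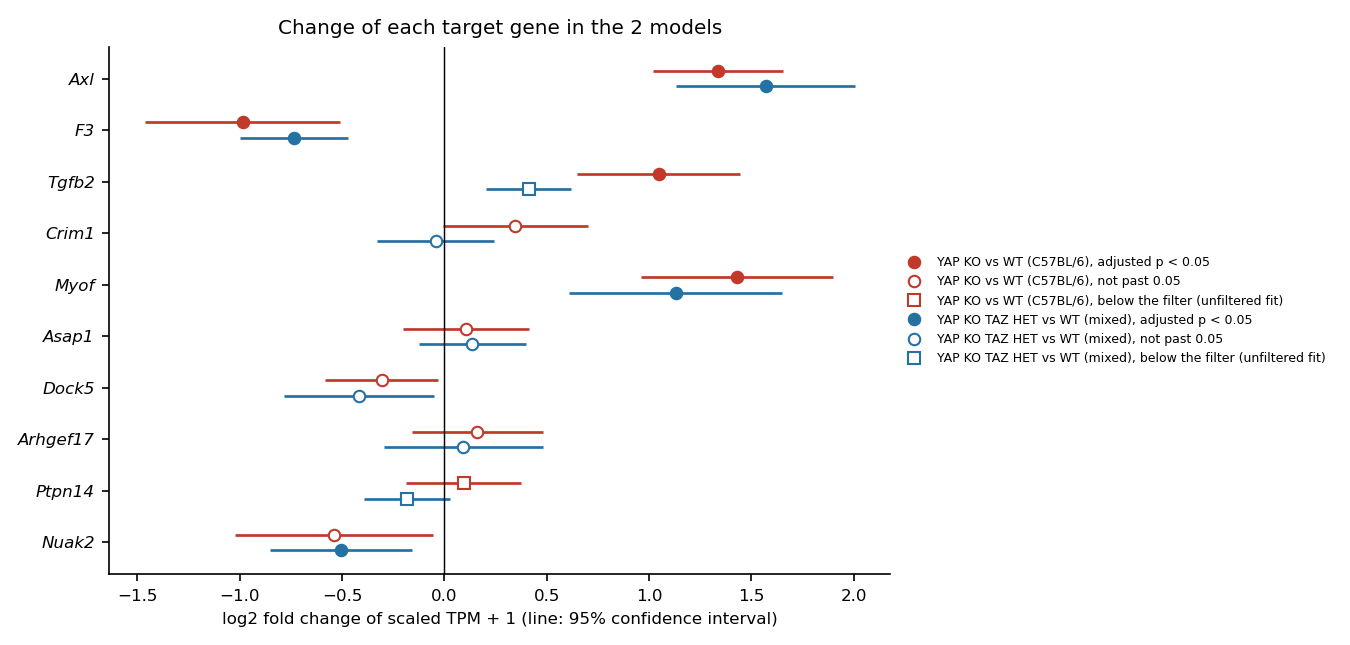
Log2 fold change of scaled TPM + 1 (horizontal axis) of each gene in YAP KO against WT (C57BL/6) and YAP KO TAZ HET against WT (mixed) livers, with 95% confidence intervals. Filled circles passed an adjusted p of 0.05, open circles did not, and squares are genes below the filter, taken from the unfiltered fit. Axl, Myof and F3 have filled circles on the same side of 0 in both models. The intervals, which are not adjusted for the number of genes, also exclude 0 on the same side in both models for Tgfb2, Dock5 and Nuak2.

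The changes of the 2 models were compared in a fit of all 12 livers. In it the copy of Wwtr1 cannot be told apart from background, floxed Yap1 line, reporter and set of animals. Wwtr1 RNA itself overlapped between the knockout groups, at 0.856 times the YAP KO mean in YAP KO TAZ HET livers (exact permutation p = 0.3). The remaining Yap1 RNA was higher in every YAP KO TAZ HET liver, at 4.01 times the YAP KO mean (exact permutation p = 0.1). Its part in the differences below was not tested. Of 9 members tested, 0 differed by limma, against 0.0576% of 12159 genes, and 1, Tgfb2, had an unadjusted p below 0.05, as did 555 of the 12159 genes. Tgfb2 passed the filter in this fit through the YAP KO livers alone, the group in which it was high. The rise of Tgfb2 was larger in YAP KO livers by 0.64 (SE 0.22, limma adjusted p = 0.908), with a 95% interval from 0.17 to 1.12. Set directly beside each other, the YAP KO TAZ HET livers held 0.459 times the mean Tgfb2 level of the YAP KO livers, without overlap (exact permutation p = 0.1). How many of all genes were without overlap in this way was not counted. The changes of Axl differed by -0.24 (95% interval -0.79 to 0.31), of Myof by 0.30 (SE 0.32), of F3 by -0.26 (-0.79 to 0.26) and of Crim1 by 0.38 (-0.04 to 0.80). These intervals leave room for differences of the size of many of the changes themselves.

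The WT groups gave the baseline on each background. Of 7 members tested between WT (mixed) and WT (C57BL/6), 0 were called by limma, against 0.216% of 11126 genes. An unadjusted p below 0.05 was reached by 0 members and by 649 of the 11126 genes. The fitted differences ran from -0.20 for F3 to 0.14 for Dock5. Ptpn14, below the filter, was the only member without overlap, with all WT (mixed) livers above all WT (C57BL/6) livers and a ratio of 1.60 (exact permutation p = 0.1). That p is the smallest this test allows, and the share of all genes without overlap between the WT groups was not counted.

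The other 12 genes of the signature set the members in context. Of these, 9 were tested in each model, with 3 higher and 2 lower in YAP KO and 2 higher and 4 lower in YAP KO TAZ HET livers, and medians of 0.09 and -0.26. The medians over all tested genes were -0.04 in each model, with 18.8% and 19.2% called higher and 17.9% and 19% lower. Ccn1, a secreted matrix protein, rose by 1.98 (SE 0.42, adjusted p = 0.00752) in YAP KO livers and Ccdc80 by 1.93 (SE 0.13, adjusted p = 3.71e-05), while Igfbp3 fell by 1.83 (SE 0.31, adjusted p = 0.00276). In YAP KO TAZ HET livers Igfbp3 fell by 1.63 (adjusted p = 0.001), Ccdc80 rose by 1.61 (adjusted p = 0.000131) and Gadd45a, a growth arrest gene, fell by 1.58 (adjusted p = 0.00315). Neither Axl nor Myof nor F3 showed the change of direction between the models that the deposited Ccn1 values had, which spanned 28.5 to 92.2 TPM with YAP KO and 9.15 to 10.1 TPM with YAP KO TAZ HET, though the difference between the 2 changes of Ccn1 did not pass the limma test either (adjusted p = 0.137).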

How the data were processed

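Frozen livers of 12 female mice in 4 groups of 3 were sequenced. In CLC Genomics Workbench, the authors mapped paired reads to the mouse build GRCm38.p6, and per the file headers the deposited values are TPM, which sum to 1000000 in each library and keep no read depth. The annotation and the strand setting of counting are not given in the sources used here. Columns of the authors' own comparisons (maximum group means, fold changes, p-values, made with edgeR in that software) were not used. Because TPM are not counts, limma 3.58.1 in R 4.3.3 was used with a variance trend. TPM were scaled by an unweighted trimmed mean of log ratios (trimming 30% by log ratio and 5% by mean level from either end) and analysed as log2(TPM + 1). A gene entered a test when 3 or more of the libraries compared reached 1 TPM, and p-values were adjusted by Benjamini-Hochberg over all tested genes (two-sided, threshold 0.05). Single genes were also compared by exact two-sided permutation of 3 against 3 mice, whose smallest p is 0.1. The code was tested on simulated data. No 2 libraries were identical. Gene positions are those of GENCODE M21, which held 99.84% of the identifiers. The largest part of a member's transcript matched by another gene at 90% identity was 2.424%, for Tgfb2 with Gm29491. The best matches, this one, Crim1 with Fez2 and Ptpn14 with Gm26574, were to genes that overlap the member on the other strand. All 10 members were named with every value, other lists by counts, with up to 3 called genes of largest change named for the signature list, all coactivators and TEAD factors, and partners beside their member. Some cell type markers were named as well. Members and lists were chosen with earlier results of these data known. Alternatives were another pseudocount, no filter, no scaling, quantile normalization, robust shrinkage, a fit of all 12 libraries and leaving out each library.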

Additional observations from a re-analysis of the deposited data

Results flagged for a closer look

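The change of Ccn1 differed between the models by 2.66 on the log2 scale (SE 0.48, limma adjusted p = 0.137), and was picked out because all YAP KO mice lay above and all YAP KO TAZ HET mice below their WT littermates. This difference did not pass the test across all genes. The change of Yap1 differed by -1.59 (SE 0.24, limma adjusted p = 0.0371), the fall being larger in YAP KO livers, and passed the test of the difference itself with scaling but not without it (adjusted p = 0.0603). No explanation was tested for either.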

How the results depend on the processing

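Each result of the members was recomputed under the alternatives, 441 values in all, of which 393 kept their direction and their side of the threshold, 7 lost a call, 9 gained one and 32 changed sign. All sign changes were of values that passed the test neither before nor after. Axl, Myof and F3 in both models and Tgfb2 in YAP KO livers were called in 12 of 12 alternatives each. The members called lower in YAP KO livers numbered 2 with quantile normalization, which added Dock5, and 2 with all 12 libraries in 1 fit, which added Nuak2, against 1. In YAP KO TAZ HET livers they numbered 1 without the filter and 1 without scaling, against 2, with Nuak2 lost in each, and 3 with quantile normalization, which added Dock5. With single mice left out they numbered 1 to 2 in either model. Without scaling, 4390 genes were called higher and 834 lower in YAP KO livers and 4089 and 886 in YAP KO TAZ HET livers, against 2202, 2093, 2253 and 2233.

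Genes whose change differed between the models numbered 3 higher and 4 lower, and with a pseudocount of 0.1 they numbered 1 and 2, and without the filter 1 and 1. With single mice left out they numbered 2 to 15 and 1 to 7, the 15 being without the YAP KO mouse LM74. Genes called between the WT groups numbered 19 higher and 5 lower, and 1 was lower without the filter, and with single mice left out 11 to 20 were higher and 1 to 8 lower.

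The sign changes had these values. Quantile normalization gave -0.0015 for Asap1 and -0.085 for Arhgef17 in YAP KO and -0.16 for Arhgef17 in YAP KO TAZ HET livers. No scaling gave 0.24 for Crim1 in YAP KO TAZ HET livers, 0.0030 for Asap1 in the difference between the models, and 0.0034, 0.032, 0.024 and 0.053 for Asap1, Axl, Arhgef17 and Nuak2 between the WT groups, where all 12 libraries in 1 fit gave 0.0020 for Nuak2. Leaving out single mice gave -0.10 to 0.053 for Crim1 in YAP KO TAZ HET livers. In the difference between the models it gave -0.13 to 0.023 for Asap1, -0.0057 to 0.22 for Dock5, -0.079 to 0.15 for Arhgef17 and -0.26 to 0.085 for Nuak2. Between the WT groups it gave -0.095 to 0.0050 for Asap1, -0.24 to 0.14 for Axl, -0.051 to 0.032 for Arhgef17 and -0.22 to 0.12 for Nuak2. The cause of these shifts was not tested.

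No paired analysis was possible because the labels give each mouse a number of its own and do not say which mice shared a litter, although the WT mice were littermates. With 3 mice a group and TPM without depth, the counting error of Tgfb2, Ptpn14 and Myof near or below 1 TPM is unknown, and members that missed the threshold are not shown to be unchanged.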
